A study of Sparus aurata with 53 samples.

Results

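HDAC3 and EHMT2 are chromatin modifiers, and their transcripts were followed over a day in gilthead sea bream (Sparus aurata) larvae. Each gene was measured by 1 probe of a custom Agilent oligonucleotide array, clone C2_14642 for HDAC3 and clone C2_23348 for EHMT2. They were chosen by these clone codes and are 2 of the 13940 probes on the array. The larvae were 30 days post hatching, with no treatment or genotype named in the labels, kept under a photoperiod of 12 h light and 12 h darkness and fed without restriction. Light came on at 0 h zeitgeber time, which counts hours from lights on, and went off at 12 h. Sampling ran in steps of 3 h over 9 times, the first at 0 h and the last at 24 h. Sample titles, read as local clock times, place the larvae labelled 12 h shortly before lights off. Each sampling time had 6 larvae except 12 h, which had 5. The RNA of each of the 53 larvae was hybridised to its own array. The study chose both clones on these same larvae because they varied over the day, so the tests over the day given here are not independent evidence of a rhythm.

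HDAC3 is a histone deacetylase. In mammals it is the catalytic part of the NCoR and SMRT corepressor complexes, which REV-ERB nuclear receptors bring to the promoters of clock genes such as bmal1, where removal of acetyl groups from histones goes with repression. EHMT2, also called G9a, is a histone methyltransferase that, in mammals, works together with EHMT1 and adds 1 or 2 methyl groups to lysine 9 of histone H3. That mark is bound by HP1 proteins, the family of chromobox protein homolog 5, and is found at repressed genes.

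The level of a gene is its probe's log2 intensity relative to the 75th percentile of that array, so a value of 0 is the intensity below which 75% of the probes lie. Both probes were well above background on 53 of 53 arrays. The HDAC3 probe, printed once, had intensities between 180.5 and 757, and the EHMT2 probe, printed 2 times, between 183.2 and 978.9, with local backgrounds of 21 to 40 beside them. No spot on any array was saturated, and the 75th percentile of the arrays lay between 142 and 504. Between the 2 EHMT2 spots the median difference was 0.07 log2 units. Each gave the course over the day described for their mean, with maxima of a fitted 24 h cosine at 10.8 h and 10.5 h. The arrays lay on 7 slides scanned on 3 dates, with at most 1 array of a sampling time on a slide. The annotation of RefSeq for the sea bream (assembly fSpaAur1.1) lists 1 gene under the symbol hdac3, with 1 transcript, and 1 under ehmt2, with 3. It also lists the related ehmt1a and ehmt1b and 9 other genes with an hdac symbol. How far the probes bind RNA of these relatives was not tested.

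HDAC3 was low around lights on and high from the late light phase into the dark phase. At 0 h the 6 larvae ranged from 0.24 to 0.42, with a median of 0.32. At 3 h, the lowest sampling time, they ranged from 0.02 to 0.45, with a median of 0.30. The larvae of 6 h were widely spread, from 0.33 to 0.89 around a median of 0.52, so that some were at the level of 0 h and 2 were within the range of 9 h. At 9 h, the highest sampling time, the values ran from 0.60 to 0.91, with a median of 0.79, above every larva of 0 h and of 3 h. The 5 larvae of 12 h had 0.36, 0.59, 0.59, 0.59 and 0.98. Thus 3 of the 5 were nearly equal, 1 was among the low values of the early light phase and 1 was the highest HDAC3 value of all 53 larvae. At 15 h the range was 0.66 to 0.93 (median 0.79) and at 18 h it was 0.39 to 0.81 (median 0.70). Late in the dark phase, at 21 h, the level was low again, with 0.22 to 0.61 (median 0.36). At 24 h, the next lights on, it was 0.12 to 0.55 (median 0.36). The larvae of 15 h lay above all larvae of 0, 3, 21 and 24 h.

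Mean HDAC3 levels at 0, 3 and 6 h were 0.33 ± 0.08, 0.27 ± 0.15 and 0.55 ± 0.22 (SD, n = 6 larvae per sampling time, 5 at 12 h). Those of 9, 12 and 15 h were 0.78 ± 0.12, 0.62 ± 0.23 and 0.78 ± 0.09, and those of 18, 21 and 24 h were 0.63 ± 0.17, 0.40 ± 0.15 and 0.36 ± 0.14. The distance from the lowest to the highest mean was 0.52 log2 units, or 1.43-fold. HDAC3 passed the moderated F test of limma over the 9 sampling times (adjusted p = 6.78e-05 over all probes), as did 15.7% of all probes. With another background correction, the normexp model with an offset of 50, its adjusted p was 0.0625 and it no longer passed. A cosine of period 24 h was fitted to the 53 values, with an amplitude (the distance from the middle to the maximum) of 0.23 ± 0.03 log2 units (SE, n = 53). Its maximum fell at 12.7 h, with a 95% interval of 11.5 to 13.9 h, and maximum over minimum was 1.38-fold. This test was passed too (limma, adjusted p = 1.04e-06), as it was by 29.6% of all probes. The mean dipped at 12 h between the equal means of 9 h and 15 h. A test of any departure from a single cosine, which does not single out the dip, did not pass (limma F test, unadjusted p = 0.199). Of all probes, 0.158% passed that test after adjustment. Sampling times accounted for 63.0% of the variance of HDAC3 among larvae. In whole larvae, fewer cells of a type and less RNA per cell cannot be told apart, which holds for every level given here.

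EHMT2 rose through the light phase, was highest around lights off and was lowest late in the dark phase. At 0 h the larvae ranged from 0.43 to 0.76, with a median of 0.58, and at 3 h from 0.48 to 0.90, with a median of 0.65. At 6 h they spread from 0.65 to 1.06, with a median of 0.81. At 9 h the values lay between 0.86 and 1.15 (median 0.96), above all larvae of 0, 18 and 21 h. The 5 larvae of 12 h had 0.93, 1.01, 1.06, 1.08 and 1.12, the narrowest spread of the day and above every larva of 0, 3, 18 and 21 h. At 15 h the range was 0.63 to 1.07 (median 0.92) and at 18 h it was 0.45 to 0.81 (median 0.67). Late in the dark phase, at 21 h, the range was 0.28 to 0.85 (median 0.49), and at 24 h, the next lights on, 0.39 to 1.03 (median 0.52). At 24 h, 1 larva stood at 1.03, in the range of 12 h, and the other 5 were at 0.66 or below.

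Mean EHMT2 levels at 0, 3 and 6 h were 0.58 ± 0.12, 0.66 ± 0.18 and 0.83 ± 0.18 (SD, n = 6 larvae per sampling time, 5 at 12 h). Those of 9, 12 and 15 h were 0.99 ± 0.14, 1.04 ± 0.07 and 0.89 ± 0.17, and those of 18, 21 and 24 h were 0.67 ± 0.13, 0.53 ± 0.21 and 0.60 ± 0.23. The lowest and highest means were 0.51 log2 units apart, or 1.42-fold, so the size of the daily change was like that of HDAC3. EHMT2 passed the F test over the sampling times (limma, adjusted p = 5.52e-04). The 24 h cosine (limma, adjusted p = 4.34e-07) had an amplitude of 0.24 ± 0.03 log2 units (SE, n = 53) and a maximum at 10.7 h (95% interval 9.52 to 11.8 h), and maximum over minimum was 1.39-fold. The departure from that cosine had an unadjusted p of 0.979 (limma F test). Sampling times accounted for 56.9% of the variance of EHMT2 among larvae.

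**Figure D1:**
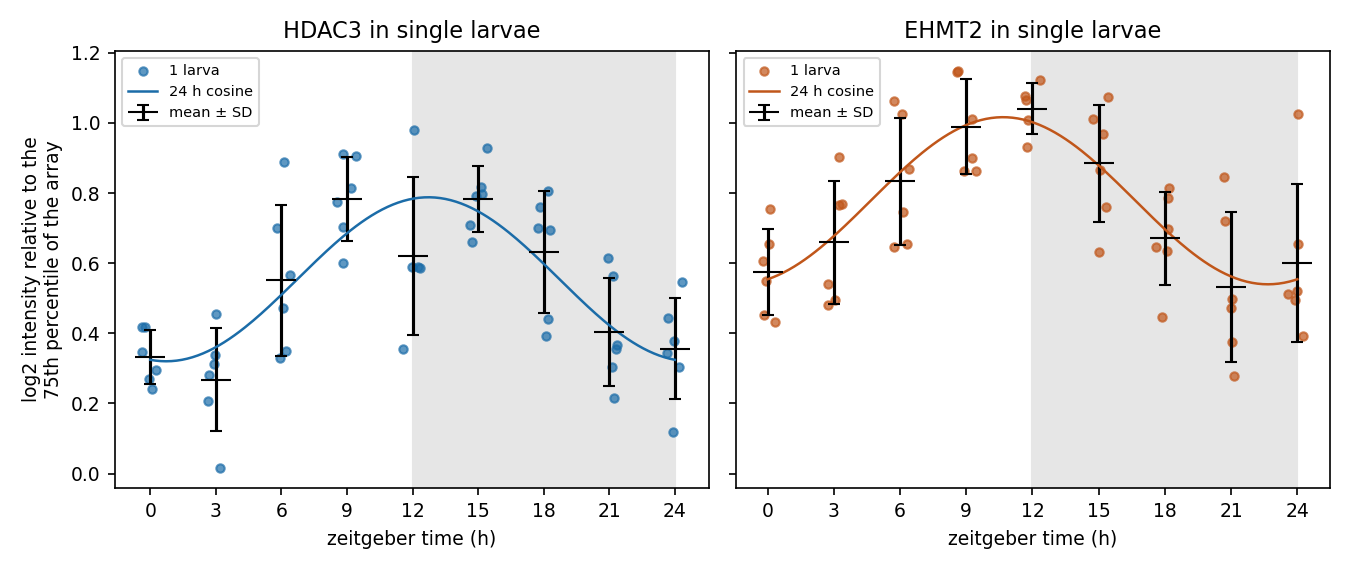
HDAC3 (left) and EHMT2 (right) in single larvae, as log2 intensity relative to the 75th percentile of the array (vertical axis), against zeitgeber time in h (horizontal axis, points spread sideways for legibility, dark phase shaded). Points are larvae, black bars are means ± SD (n = 6, 5 at 12 h) and lines are the fitted 24 h cosines, whose maxima fall at 12.7 h for HDAC3 and 10.7 h for EHMT2.

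Sampling times 12 h apart lie at opposite phases of the light cycle. HDAC3 at 15 h, 3 h into the dark, was 0.52 log2 units or 1.43-fold higher than at 3 h, 3 h into the light (0.78 ± 0.09 against 0.27 ± 0.15, SD, n = 6 each, limma, adjusted p = 2.59e-04), with no overlap between the larvae. In this pair 9.83% of all probes passed and 5.34% did not overlap. At 21 h it was lower than at 9 h by a difference of -0.38 (limma, adjusted p = 0.0123), where 1 larva of 21 h reached the range of 9 h, in a pair that 7.14% of probes passed. The other 3 differences of HDAC3 did not pass. They were 0.29 for 12 h over 0 h (adjusted p = 0.113 from limma), 0.08 for 18 h over 6 h (adjusted p = 0.661 from limma) and -0.26 for 24 h over 12 h (adjusted p = 0.159 from limma), pairs passed by 5.93%, 7.04% and 6.66% of all probes.

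For EHMT2, 3 of the 5 pairs passed, of which 21 h against 9 h had passed for HDAC3 too. Larvae of 12 h were 0.47 log2 units or 1.38-fold above those of 0 h (1.04 ± 0.07, n = 5, against 0.58 ± 0.12, n = 6, SD, limma, adjusted p = 0.00469), and the values did not overlap, as for 5.04% of all probes. At 21 h EHMT2 was lower than at 9 h by a difference of -0.46 (limma, adjusted p = 0.00363), again with no overlap (3.5% of all probes), and at 24 h it was lower than at 12 h by a difference of -0.44 (limma, adjusted p = 0.00787), where the high larva of 24 h overlapped. The differences of 0.23 for 15 h over 3 h (adjusted p = 0.198 from limma) and -0.16 for 18 h over 6 h (adjusted p = 0.367 from limma) did not pass. Whether the size of these differences is unlike between the genes was not tested pair by pair.

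Over all 36 pairs of sampling times, each adjusted over all probes, HDAC3 passed in 10 and EHMT2 in 8. Pooled over the pairs, 3.58% of all probe comparisons passed. Larvae of both times did not overlap in 7 of 36 pairs for HDAC3 and in 7 of 36 for EHMT2, against 2.56% of the comparisons of all probes. All 10 pairs of HDAC3 set a time from 9 to 18 h against 0, 3, 21 or 24 h, and all 8 of EHMT2 set a time from 9 to 15 h against the same times. None of the 8 pairs of consecutive sampling times passed for either gene (a count of 0, limma). Without adjustment, 3 of 8 for HDAC3 and 0 of 8 for EHMT2 had a limma p under 0.05. The share of all probes at that unadjusted threshold was not computed, so these counts are not read as a difference between the genes. After adjustment, only 0.0359% to 0.746% of all probes passed in these pairs, so the adjusted count of 0 is near that of the array as a whole. In order of mean level, HDAC3 ran 9, 15, 18, 12, 6, 21, 24, 0 and 3 h, and EHMT2 ran 12, 9, 15, 6, 18, 3, 24, 0 and 21 h. No neighbours in either order passed (limma), with differences of 0.15 log2 units or less for HDAC3 and 0.16 or less for EHMT2. Sorting by mean sets close levels side by side, so small differences between neighbours follow in part from the sorting.

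Larvae taken at 24 h and at 0 h stood at the same phase of the light cycle. HDAC3 at 24 h differed from 0 h by 0.02 log2 units (95% interval -0.18 to 0.23, limma, adjusted p = 0.985), and EHMT2 by 0.03 (95% interval -0.19 to 0.24, limma, adjusted p = 0.985). The intervals leave room for differences of up to about 1.17-fold for HDAC3 and 1.18-fold for EHMT2, and no probe on the array passed in this pair (a count of 0 or 0%, limma, with 449 probes at an unadjusted p under 0.05). The study reports a few differing genes for this pair, from its own analysis of variance, which is not the limma contrast used here.

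The fitted cosines of HDAC3 and EHMT2 differed little in amplitude, and the fitted maximum of HDAC3 fell later. The planned test of a difference between the courses, given below, did not pass. The amplitude of HDAC3 minus that of EHMT2 was -0.01 log2 units, with a 95% interval of -0.09 to 0.08. The fitted HDAC3 maximum came 2.06 h after that of EHMT2, with a 95% interval of 0.57 to 3.55 h. This lag rests on the shape of the cosine. By the sampled means, HDAC3 was highest at 9 h, nearly equal at 15 h, and dipped at 12 h, where EHMT2 was highest. Since the probes cannot be compared in level, the difference HDAC3 minus EHMT2 was taken within each array and centred on its mean over all larvae. It was lowest at 12 h, with a mean of -0.20 ± 0.27 (SD, n = 5), and highest at 18 h, with 0.19 ± 0.19 (SD, n = 6). At 12 h, 4 of the 5 larvae were below 0, and at 18 h, 5 of the 6 larvae were above 0. Permuting larvae among the 9 sampling times, this difference did not pass as a change over the day (F = 1.87, permutation p = 0.0874, 100000 draws). With the slide as a block it did (permutation p = 0.00917). A test of the cosine and sine terms alone, chosen after the data were seen, gave a permutation p of 0.0308. The 9 means of HDAC3 and EHMT2 had a Pearson r of 0.78, a description that rests on 9 sampling times.

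**Figure D2:**
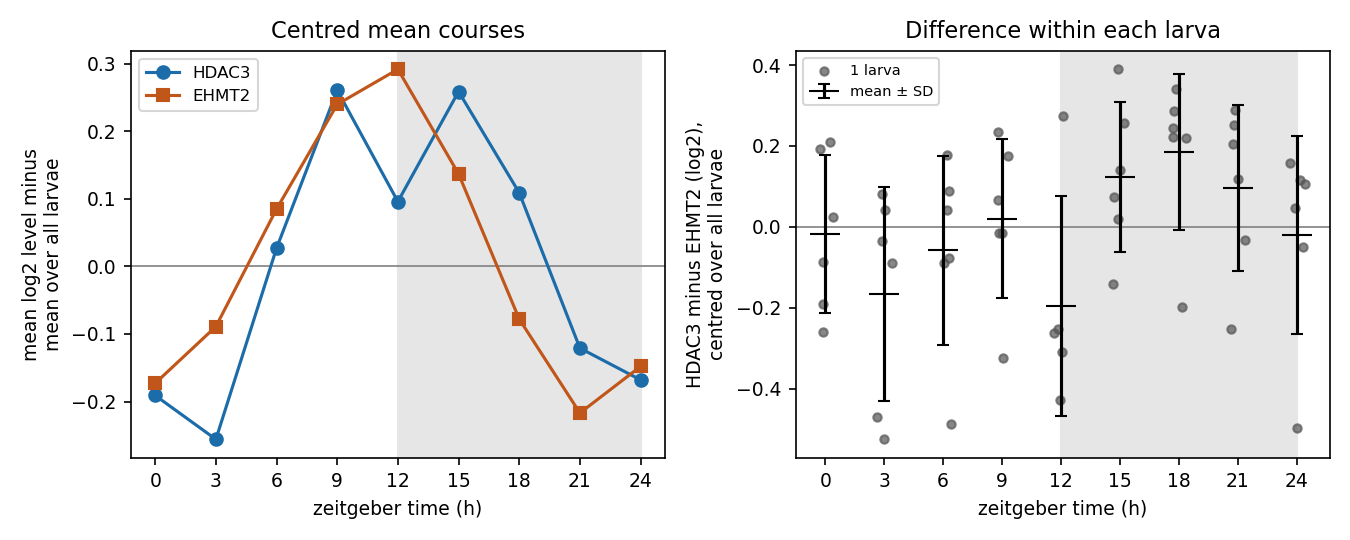
Left, mean log2 levels of HDAC3 and EHMT2 minus the mean of each over all larvae, against zeitgeber time in h (dark phase shaded). Right, HDAC3 minus EHMT2 in log2 units within each larva, centred over all larvae (points), with means ± SD (bars, n = 6, 5 at 12 h), lowest at 12 h (-0.20) and highest at 18 h (0.19).

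The daily course was also read within single slides, where the arrays were hybridised side by side. On each slide the arrays it held of 9, 12 and 15 h were averaged, and likewise those of 21, 24 and 0 h, times picked from the levels above. Slide 3 alone held all of these times, and on slide 6 the first mean came from 15 h alone. The first mean was higher than the second on 7 of 7 slides for HDAC3, by 0.20 to 0.62 log2 units (median 0.37). The 0.62 came from slide 6. For EHMT2 the same held on 7 of 7 slides, by 0.07 to 0.64 (median 0.43). On each of the 7 slides the cosine of HDAC3 peaked later than that of EHMT2, by 0.47 to 9.02 h (median 1.67 h). These fits split the same larvae, with 6 to 8 arrays per slide, and are no separate evidence. Slide 7, with 6 arrays and none from 0, 3 or 6 h, gave both the 9.02 h and the smallest EHMT2 difference of 0.07. It had the highest slide mean of EHMT2, at 0.93 against 0.65 to 0.85 on the other slides. It held the larva of 24 h at 1.03 and the highest larva of 21 h, at 0.85. HDAC3 on slide 7 had a mean of 0.50, inside the 0.47 to 0.62 of the other slides. Without replicate 6, which takes out all 6 arrays of slide 7 and 3 of slide 6, the EHMT2 means spanned 0.58 log2 units. The fitted maximum of EHMT2 then fell at 10.9 h. The slide and the sampling times it held cannot be wholly told apart.

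**Figure D3:**
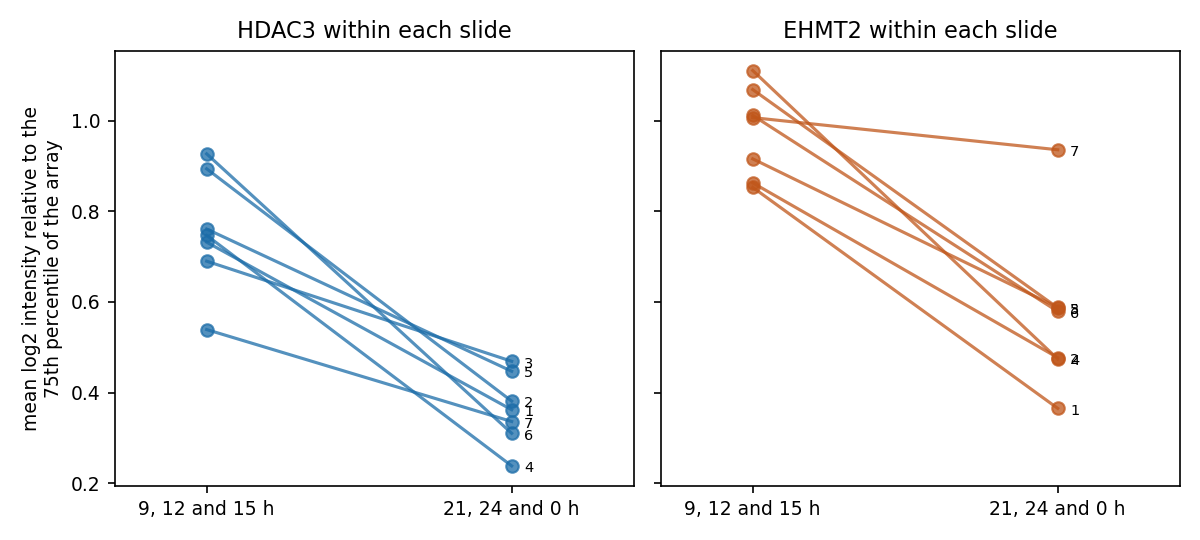
Mean log2 level of HDAC3 (left) and EHMT2 (right) on each of the 7 slides (numbered lines), relative to the 75th percentile of the array. Means are over the arrays the slide held of 9, 12 and 15 h (on slide 6 only 15 h) and of 21, 24 and 0 h. The line falls towards 21, 24 and 0 h on 7 of 7 slides for both genes, least for EHMT2 on slide 7 (0.07).

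Whether larvae of one sampling time that were high in HDAC3 were also high in EHMT2 was read from the deviations of each larva from the mean of its time. No correlation passed the threshold in this normalization, with a Pearson r of 0.05 (permutation p = 0.759) and a Spearman rho of 0.05 (permutation p = 0.748) over 53 larvae, and r was 0.03 without the 2 larvae farthest from the median of HDAC3. This was the only relation of its kind tested. Within scan dates r was -0.11 (n = 32), 0.60 (n = 15) and 0.34 (n = 6), and within slides it ran from -0.68 to 0.72. The value also moved with the scaling. Centring each array on its median gave r = 0.39 (permutation p = 0.00945) and the normexp correction gave r = 0.39 (permutation p = 0.00752), whereas quantile normalization gave r = 0.02.

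Against other probes, the daily changes of HDAC3 and EHMT2 were small and their spread between larvae was small too. Of the probes that passed the F test, 9.75% had a smaller distance between lowest and highest mean than HDAC3, 9.21% had a smaller one than EHMT2, and the median was 0.95 log2 units. The residual SD between larvae of one sampling time was 0.16 for HDAC3 and 0.17 for EHMT2, against a median of 0.43 over all probes. Only 1.28% of probes had a smaller residual SD than HDAC3, and 2.23% a smaller one than EHMT2. Both members were bright, with median levels of 0.472 for HDAC3 and 0.755 for EHMT2, whereas all probes include dim ones. A comparison with probes of like intensity was not made. Whether the small spread and the small changes are particular to these genes was therefore not tested. Of the 4133 probes with a 24 h cosine, 406 (9.82%) peaked within 1 h of HDAC3 and 271 (6.56%) within 1 h of EHMT2. The median of all probes itself moved by 0.14 log2 units over the sampling times. Relative to it, the means of HDAC3 spanned 0.54 and those of EHMT2 0.60 log2 units.

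Other genes of chromatin and its control were taken from those the study names, 10 clones that it too had chosen on these larvae. Of these, 10 of 10 passed the F test, against 15.7% of all probes. The list was drawn from the clones for which the study pairs a name with a clone code. The histone acetyltransferases KAT2A, KAT2B, KAT5 and KAT7 and the methyltransferase SETDB1-B, which it names beside HDAC3 and EHMT2 without a code, were not analysed here. In the 10 clones the median distance between lowest and highest mean was 0.79 log2 units. Maxima given for them are of fitted 24 h cosines. By that measure, 2 of the 10 peaked between 9 and 15 h, as HDAC3 and EHMT2 did. One of these was chromobox protein homolog 5, the HP1 protein that binds methylated lysine 9. Its maximum at 11.5 h lay between those of EHMT2 and HDAC3, its means spanned 0.51 log2 units, and its 9 means had r = 0.93 with EHMT2 and 0.89 with HDAC3. The other was USP3, a ubiquitin protease that in mammals acts on histones, with a maximum at 12.8 h (limma, adjusted p = 0.0483). The nuclear receptor 0B2, a corepressor that in mammals binds other nuclear receptors, had the widest span of the 10 at 3.41 log2 units. Its fitted maximum was at 8.66 h and its highest mean at 6 h. Retinoblastoma-associated protein, which in mammals recruits chromatin modifiers to E2F target genes, ran nearly opposite to both, with a maximum at 0.44 h and r of -0.90 with EHMT2 and -0.87 with HDAC3. E2F4 and max, both transcription factors, had fitted maxima at 19.3 h and 19.9 h. By the sampled means, max had its top level at 21 h. E2F4 had its smallest mean (-0.998) at 12 h and its largest (-0.35) at 15 h, the next sampling time. Its fitted maximum therefore does not mark the time of its largest mean. The arginine methyltransferase PRMT7 and the histone-binding proteins nucleophosmin and GRWD1 had fitted maxima between 3.39 and 4.19 h. So did S-adenosylmethionine synthase isoform type-2, which makes the methyl donor that EHMT2 uses. The highest mean of each of these was at 6 h.

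Of 9 clock and clock-linked clones, 9 of 9 passed the F test, against 15.7% of all probes. They had likewise been chosen by the study on these larvae. Times given here are maxima of the fitted 24 h cosines. Those of bmal1, at 10.0 h, and of clock, at 10.8 h, lay close to that of EHMT2 and ahead of that of HDAC3. By the sampled means, bmal1 and HDAC3 were both highest at 9 h, and clock and EHMT2 both at 12 h. The 9 means of clock had r = 0.98 with EHMT2 and 0.80 with HDAC3, and those of bmal1 had 0.90 and 0.66. The study also lists genes picked by their rank correlation with clock genes. These r values may therefore follow in part from how the clones were picked. The clock probe was well above background on 40 of 53 arrays and the bmal1 probe on 34 of 53, so their lowest levels are only bounds. The period gene per3 was at the opposite phase, with a maximum at 23.5 h and r of -0.93 with EHMT2 and -0.90 with HDAC3 (31 of 53 arrays above background). The cryptochromes cry1 and cry2 peaked at 3.50 h and 3.05 h, and per1 at 4.54 h (47 of 53 arrays above background). The retinoid-related receptor ROR-gamma peaked at 3.68 h and nocturnin at 0.79 h. The per2 probe, at 3.00 h, was above background on 5 of 53 arrays.

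**Figure D4:**
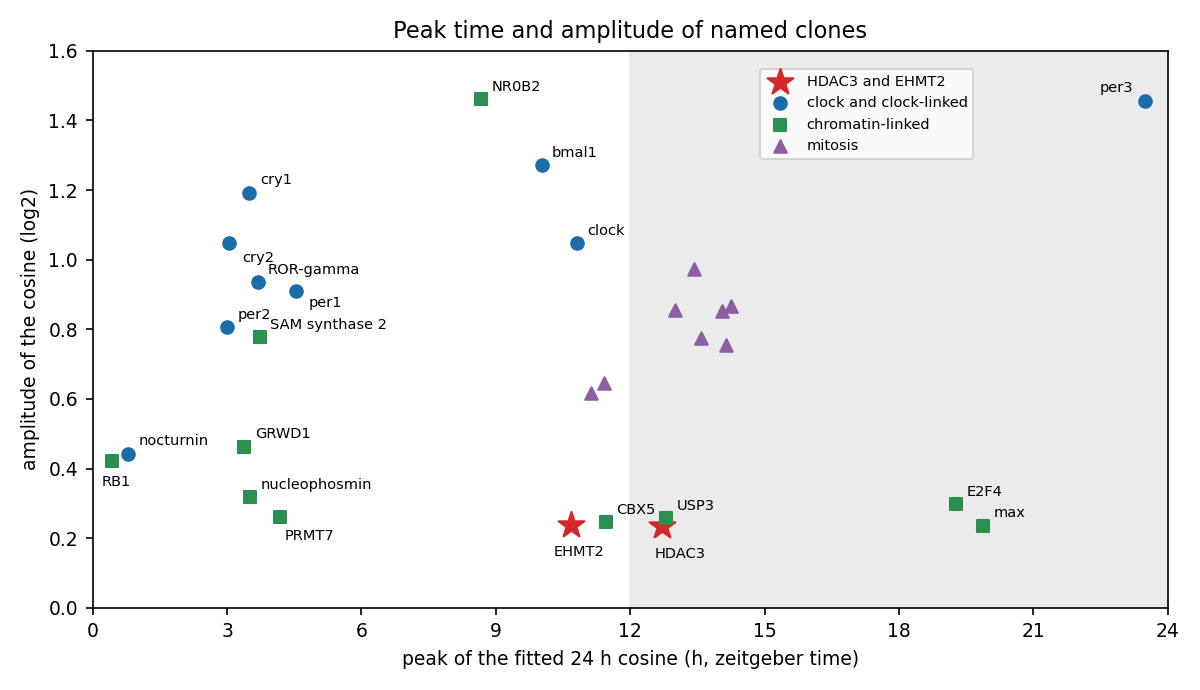
Peak time in h zeitgeber time (horizontal axis, dark phase shaded) and amplitude in log2 units (vertical axis) of the 24 h cosine fitted to HDAC3 and EHMT2 (stars), 9 clock and clock-linked clones (circles), 10 chromatin-linked clones (squares) and 8 mitosis clones (triangles). HDAC3 (12.7 h, 0.23) and EHMT2 (10.7 h, 0.24) lie among the smallest amplitudes, beside chromobox protein homolog 5 (CBX5) and USP3.

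Transcripts of mitosis genes moved over the day in the same larvae, and serve here as a stand-in for dividing cells. Cell division itself was not measured, and the study states that mitosis may come hours after these transcripts are highest. The study had chosen these clones too. Of 8 clones (cyclins A2, B1, B2 and B3, cdk1-B, PLK1, aurora kinase A-A and cdc20), 8 of 8 passed the F test, against 15.7% of all probes. The maxima of their fitted 24 h cosines fell between 11.1 and 14.3 h, whereas the highest mean of each was at 15 h. The PLK1 probe was well above background on 41 of 53 arrays and the cyclin B2 probe on 52 of 53, so their lowest levels are only bounds. The mean of the 8 clones, each centred on its own mean, was lowest at 24 h, at -0.76 ± 0.48, and highest at 15 h, at 1.08 ± 0.21 (SD, n = 6 larvae each). Over the 9 sampling times it had r = 0.93 with HDAC3 and 0.75 with EHMT2. Among larvae of one sampling time, the deviations had r = 0.28 with HDAC3 and -0.20 with EHMT2 (53 larvae, no test made). The part of dividing cells in the levels of HDAC3 and EHMT2 was not tested.

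Among 232 other named clones well above background on all arrays, those whose 9 means were most like HDAC3 by Pearson r were the ubiquitin ligase UBR1 (0.97), transcription factor Dp-1 (0.96), which pairs with E2F factors, protein regulator of cytokinesis 1 (0.95), 14-3-3 protein beta/alpha-1 (0.95) and calreticulin (0.95), a chaperone of the endoplasmic reticulum. UBR1 and 14-3-3 protein beta/alpha-1 did not themselves pass the F test (adjusted p = 0.105 and 0.120 from limma). Those most like EHMT2 were the ubiquitin ligase ZNRF2 (0.99), solute carrier family 25 member 36 (0.97), a mitochondrial carrier, gametogenetin-binding protein 2 (0.97), UHRF1-binding protein 1-like (0.97) and cyclin-dependent kinase 17 (0.97). No clone stood in both groups of 5. The study's listings of clones include genes picked by rank correlation with clock genes, which may shape which names appear here. Its listings of pathway genes hold HDAC3 and the 5 clones most like it, but neither EHMT2 nor the 5 most like EHMT2. EHMT2 ranked 60th among the clones most like HDAC3, and HDAC3 ranked 54th among those most like EHMT2. Over all 9119 other probes above background on all arrays, 37 had an r above 0.95 with HDAC3 and 25 with EHMT2, from 9 points each. Of these probes, 750 were more like HDAC3 than EHMT2 was, and 520 were more like EHMT2 than HDAC3 was.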

How the data were processed

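RNA from 53 individual larvae was labelled with Cy3, 1 larva per one-colour array. Sampling times came from the sample labels. The intensity values deposited by the authors are the background-subtracted processed signals of Agilent Feature Extraction 11.5.1.1, in fluorescence units. The authors also deposited a table of log2 values (scaled to the 75th percentile within arrays, then median-centred per probe), which served as an alternative (smallest correlation with the values used here, 0.999). The build behind the probes is not given in the sources used here, so no coordinates or sequences are shown, and the RefSeq annotation served only for gene names.

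Values were computed in R 4.3.3 (package data.table, version 1.17.8) from log2 processed signals, minus the array's own 75th percentile. The 536 controls on every array and 974 outlier-marked spots in all were omitted, and replicate spots were averaged. Between 73.8% and 94.1% of probes per array were well above background, and precision is limited by the number of arrays. Tests used limma 3.58.1 on 9 groups (44 residual and 2.95 prior degrees of freedom), 24 h cosines and contrasts of later minus earlier times, with Benjamini-Hochberg adjustment over all 13940 probes and a threshold of 0.05. Intervals of peaks and amplitudes are delta-method 95% intervals. The labels name individual fish as replicates but do not tie arrays to tanks. The study took larvae from shared tanks at each sampling time. Tank could therefore not be modelled, and the tests treat larvae as independent. The procedures were tested on simulated data. Plots were made in Python 3.11.15 (matplotlib 3.10.9).

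The members, lists and alternatives were chosen with earlier results of these data known. Named genes are both members, the clones of 3 lists taken from the study (clock, chromatin and mitosis), and for each member the 5 of the study's 275 named clones with the highest Pearson r of the 9 means, among those above background on all arrays. Alternatives were other background corrections, quantile normalization, median centring, a filter on dim probes, outlier spots kept, the deposited table, the methods' analysis of variance, slide or replicate number as a block, and each replicate number left out. The normexp correction (offset of 50) was run on the median spot signal and, like the test of the cosine and sine terms alone, was chosen after seeing the data. No cell type markers were used, since each sample is a whole larva.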

Additional observations from a re-analysis of the deposited data

How the results depend on the processing

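The 24 h rhythms of HDAC3 and EHMT2 and the F test of EHMT2 over the day passed, and the departures from a cosine did not pass, under every alternative run. The F test of HDAC3 passed in 15 of 16, the exception being normexp. With normexp, HDAC3 had an adjusted p of 0.0625 in limma, HDAC3 passed in 1 of 5 pairs 12 h apart and 2 of 36 pairs, EHMT2 in 0 of 5 and 1 of 36, the correlation among larvae was 0.39, and 9 clock and chromatin clones passed, against 19. It called 931 probes in the F test, against 2194. With median centring, 1861 probes passed the F test. HDAC3 then passed in 5 of 36 pairs, 24 h minus 0 h was -0.03 for HDAC3 (-0.026) and -0.02 for EHMT2 (-0.024), and the correlation was 0.39 (0.393). With the slide as a block, 4072 probes passed the F test, against 2194. In that setting 4 of 5 pairs passed for HDAC3 and 15 of 36 for EHMT2. There 24 h minus 0 h of EHMT2 was -0.02 (-0.021), and the courses differed with a permutation p of 0.00917. The cosine and sine terms alone gave 0.0308. The cause of these changes was not tested, and the differences of 24 h from 0 h passed no threshold under any of them.

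The labels tie larvae of one replicate number to no shared fish, tank or day, but most of them shared a slide. Their deviations correlated with a median r of 0.19 (lowest -0.25), against -0.04 between numbers, and 27 of 53 correlated best with their own number. With the replicate number as a block, EHMT2 passed in 14 of 36 pairs, the courses differed with a permutation p of 0.0202, and 3943 probes passed the F test.

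Leaving out each replicate number in turn, 1440 to 2052 probes passed the F test. HDAC3 then passed in 1 to 2 of 5 pairs (1 without replicate 1, 3 or 5) and 6 to 10 of 36 (6 without 3 or 5). EHMT2 passed in 3 to 10 of 36 (3 without replicate 4). Its 24 h minus 0 h difference ran from -0.02 (-0.024, without replicate 6; -0.014, without replicate 2) to 0.07 (0.073, without replicate 3), and the correlation among larvae from -0.05 (-0.045, without replicate 4) to 0.13 (0.125).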
